A study of Mus musculus with 147 samples.

Results

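The Piwi family genes *Piwil1* (which encodes MIWI), *Piwil2* (MILI) and *Piwil4* (MIWI2) were followed through the mouse male germline, from primordial germ cells (PGCs) at embryonic day 8.5 (E8.5) to the adult testis. The 3 members were taken by name from the 31053 genes of the count table, and all 3 were present and passed the filter on low counts. Expression was measured by single-cell RNA-seq with a modified STRT-seq protocol, which counts unique molecular identifiers (UMIs) at the 3′ end of each transcript. All mice were wild type and came from C57BL/6 females crossed with males of the BVSC line, which carries the reporters Blimp1-mVenus and Stella-ECFP. Germ cells of E8.5 to E18.5 were sorted by flow cytometry on these reporters (the BVSC gate, with Stella-ECFP alone from E14.5 onwards), while reporter-negative gonadal cells of E11.5 to E18.5 formed a Negative gate. After birth, from postnatal day 0 (PND0) to PND35 and at 8 to 10 weeks (adult), dissociated testis cells with the shape of germ cells were picked, and cells of PND14 and PND30 were also sorted by Hoechst staining into gates of 1N, 2N and 4N DNA content. A fetal replicate pooled several embryos and a postnatal replicate was a single mouse, so that p-values measure the spread between 2 or 3 such replicates per time-point.

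PIWI proteins are Argonautes that bind piRNAs, small RNAs of the germline, and silence transposable elements. In the fetal testis, MILI slices transposon transcripts in the cytoplasm and feeds secondary piRNAs to MIWI2, which enters the nucleus and directs DNA methylation to transposon promoters while the genome of arrested germ cells is being re-methylated. MILI persists after birth, whereas MIWI is known from pachytene spermatocytes and round spermatids, where it binds the abundant pachytene piRNAs.

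A pool was the sum of the germ cells of a time-point and replicate, and at PND30 also of a gate, and its level is given in counts per 1000000 UMIs (CPM). Of 9972 wild-type cells within the quality limits, 8522 were called germ cells by marker genes and 1259 somatic, and 58 pools held at least 10 germ cells (24 to 447). Summed depth ran from 11046661 to 187788707 UMIs per pool, with a median of 190973 to 506781 UMIs per germ cell. The call matched the sorting gates: 1921 of 2016 cells of the BVSC gate were germ cells, 473 of 572 cells of the Negative gate were somatic, and the 70 cells of that gate that passed the germ markers were left out. Several pools stood apart. E8.5 replicate 1 had 1 germ cell of 48 and gave no pool, and E8.5 replicate 3 had a summed level of 1083 CPM of the 11 early germ cell markers against 2730 CPM in replicate 2, and 86.8 against 20.4 CPM of the 7 embryo body markers. PND2 replicate 1 had 24 germ cells of 110. Adult replicate 1 had 502 CPM of the 5 Leydig cell markers and 659 CPM of the 11 Sertoli cell markers in its germ cells, against 7.20 and 49.4 CPM in adult replicate 2, and only 2 of its 328 germ cells had spermatid markers as their highest list. Fetal cells of E8.5 to E10.5 included 517 germ cells of embryos whose sex the labels do not give.

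*Piwil2* (chr14:70372477-70429383, minus strand, mm10) was detected in every pool, in 45.7% and 74.5% of germ cells at E8.5. Its level was 5.42 and 6.37 CPM at E8.5, 20.5 and 8.69 CPM at E9.5, and 17.8, 38.5 and 26.5 CPM at E10.5. At E11.5 it reached 59.1 and 38.6 CPM, and 97.3% and 94.4% of germ cells held at least 1 UMI. At E12.5 it was at 52.8 and 70.5 CPM, in 95.5% and 98.6% of cells, and at E13.5 at 63.9 and 33.7 CPM, in 97.8% and 83.7%. E13.5 replicate 2 was thus the lowest of the 6 pools in both measures. The level was 101.7 and 111.1 CPM at E14.5, 320 and 218 CPM at E15.5, and 353 and 333 CPM at E16.5. The highest pool of all was E17.5 replicate 2 at 362 CPM, beside 283 CPM in replicate 1. From E15.5 to PND0 every germ cell was positive, and the pools stayed between 214 and 362 CPM. The level was then lower, at 144.9 and 216 CPM at PND1, 120 and 149 CPM at PND3, and 123.5 and 133.8 CPM at PND5. It stood at 166 and 152 CPM at PND7 and at 176 and 179 CPM at PND8, where the replicates nearly coincided. In pubertal mice the replicates diverged, with 179 and 257 CPM at PND12 and 163 and 268 CPM at PND14. At PND30, 4N cells held 96.8 and 103.4 CPM, 2N cells 32.5 and 80.2 CPM, and 1N cells 22.6 and 14.9 CPM. The 1N pools were thus the lowest after E10.5. PND35 gave 134.1 and 141.2 CPM, and the adult replicates, 282 and 121.5 CPM, were far apart.

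Ordered by their means, the windows of *Piwil2* ran from E17.5 to PND1 (258 ± 65.5 CPM, SD, n = 8 pools) and E14.5 to E16.5 (239 ± 113.1, n = 6) through PND12 to PND14 (217 ± 53.4, n = 4) and adult (202 ± 113.4, n = 2) to PND6 to PND10 (157 ± 19.6, n = 8), PND2 to PND5 (141.4 ± 24.1, n = 8) and PND35 (137.6 ± 5.01, n = 2). Neighbours in this part of the order overlapped in their ranges. Below them, the ungated cells of PND30 (135.8 CPM, 1 pool), the 4N gate (100.1 ± 4.72, n = 2) and the 2N gate (56.4 ± 33.8, n = 2) did not overlap each other. The 2N gate overlapped E11.5 to E13.5 (53.1 ± 14.4, n = 6), and the 1N gate (18.7 ± 5.39, n = 2) overlapped E8.5 to E10.5 (17.7 ± 12.1, n = 7).

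*Piwil4* (chr9:14696230-14740733, minus strand, mm10) had the narrowest window, centred on the fetal arrest. Up to E10.5 the pools held 0 to 0.851 CPM, and at most 6.45% of cells were positive. It was at 0.494 and 4.04 CPM at E11.5, 4.78 and 6.88 CPM at E12.5, and 18.1 and 5.64 CPM at E13.5. Replicate 2 was the higher at E11.5 and E12.5 and replicate 1 at E13.5. The mean was higher on each following day, with 68.2 and 47.9 CPM at E14.5, 322 and 232 CPM at E15.5, and 412 and 385 CPM at E16.5, which were the highest pools of all. From E15.5 to E17.5 every germ cell of every pool held *Piwil4* UMIs. The mean was then lower on each day, with 318 and 315 CPM at E17.5, 204 and 150 CPM at E18.5, 96.3 and 206 CPM at PND0, and 42.5 and 57.5 CPM at PND1. A low level persisted in spermatogonia, since the 16 pools of PND2 to PND10 lay between 19.1 and 55.95 CPM, and 69.8% to 95.8% of their cells were positive. PND12 gave 23.9 and 27.2 CPM and PND14 23.6 and 7.30 CPM. Past PND14 the transcript was nearly absent from the pools. Every germ cell of PND30 and PND35 had meiotic or spermatid markers as its highest list, so these ages held no cells led by spermatogonial markers. The 4N cells of PND30 held 1 *Piwil4* UMI in 286 cells, the 2N cells 1 UMI in 274 cells and the 1N cells 3 UMIs in 286 cells, each at or below the 3 counts taken as the limit of detection. PND35 held 88 UMIs, of which 84 were in replicate 2. Of the 721 UMIs of the adult, 670 came from replicate 1 (6.16 CPM against 0.272 CPM in replicate 2), which also had 46 somatic-called cells with 7.52 CPM. Of those 670 UMIs, 428 were in 305 cells led by meiotic markers (4.23 CPM, 26.9% of cells positive) and 241 in 21 cells led by gonadal germ cell and spermatogonial markers (36.7 CPM). In order of means, the windows ran from E14.5 to E16.5 (244.5 ± 157 CPM, SD, n = 6 pools) and E17.5 to PND1 (174 ± 106.9, n = 8) to PND2 to PND5 (41.6 ± 8.65, n = 8), PND6 to PND10 (29.95 ± 7.002, n = 8), PND12 to PND14 (20.5 ± 8.96, n = 4), E11.5 to E13.5 (6.66 ± 6.02, n = 6) and adult (3.22 ± 4.16, n = 2), and each overlapped the next in range.

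*Piwil1* (chr5:128702524-128755474, plus strand, mm10) was a transcript of the meiotic testis, with a minor phase in fetal life. It was at 0 to 0.674 CPM in the 5 pools of E9.5 and E10.5 and at 0.124 and 0.0404 CPM at E11.5, where 1 cell in each pool was positive. E8.5 was the exception, with 9.89 CPM and 78.7% of cells positive in replicate 3 but 0.738 CPM and 3.19% in replicate 2. The minor phase peaked with the arrest, at 34.2 and 25.3 CPM at E15.5 and 32.3 and 34.6 CPM at E16.5, when 63.4% to 84.6% of cells were positive. From E18.5 to PND10 the pools lay between 6.57 and 20.4 CPM. At PND12 the replicates held 15.1 and 210 CPM, and at PND14 26.8 and 193 CPM, so that replicate 1 resembled PND10 at 10.3 and 14.7 CPM while replicate 2 did not. The 4N cells of PND30 held 288 and 311 CPM, the ungated cells 313 CPM, PND35 cells 320 and 311 CPM, and adult cells 266 and 315 CPM. At least 99.5% of cells were positive in these 7 pools. They were the plateau of the gene, since the next lower pool was PND12 replicate 2. By window means, PND35 (315 ± 6.18 CPM, SD, n = 2), the ungated cells of PND30 (313 CPM, 1 pool), the 4N gate (299 ± 16.1, n = 2) and adult (290.4 ± 34.2, n = 2) led, followed without overlap by the 2N gate (132.99 ± 84.2, n = 2). The 2N gate overlapped PND12 to PND14 (111.1 ± 104.5, n = 4), which overlapped the 1N gate (37.4 ± 7.71, n = 2). E14.5 to E16.5 (23.4 ± 13.1, n = 6), E17.5 to PND1 (16.1 ± 6.62, n = 8), PND2 to PND5 (12.8 ± 3.10, n = 8) and PND6 to PND10 (11.51 ± 4.36, n = 8) overlapped in turn.

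**Figure D1:**
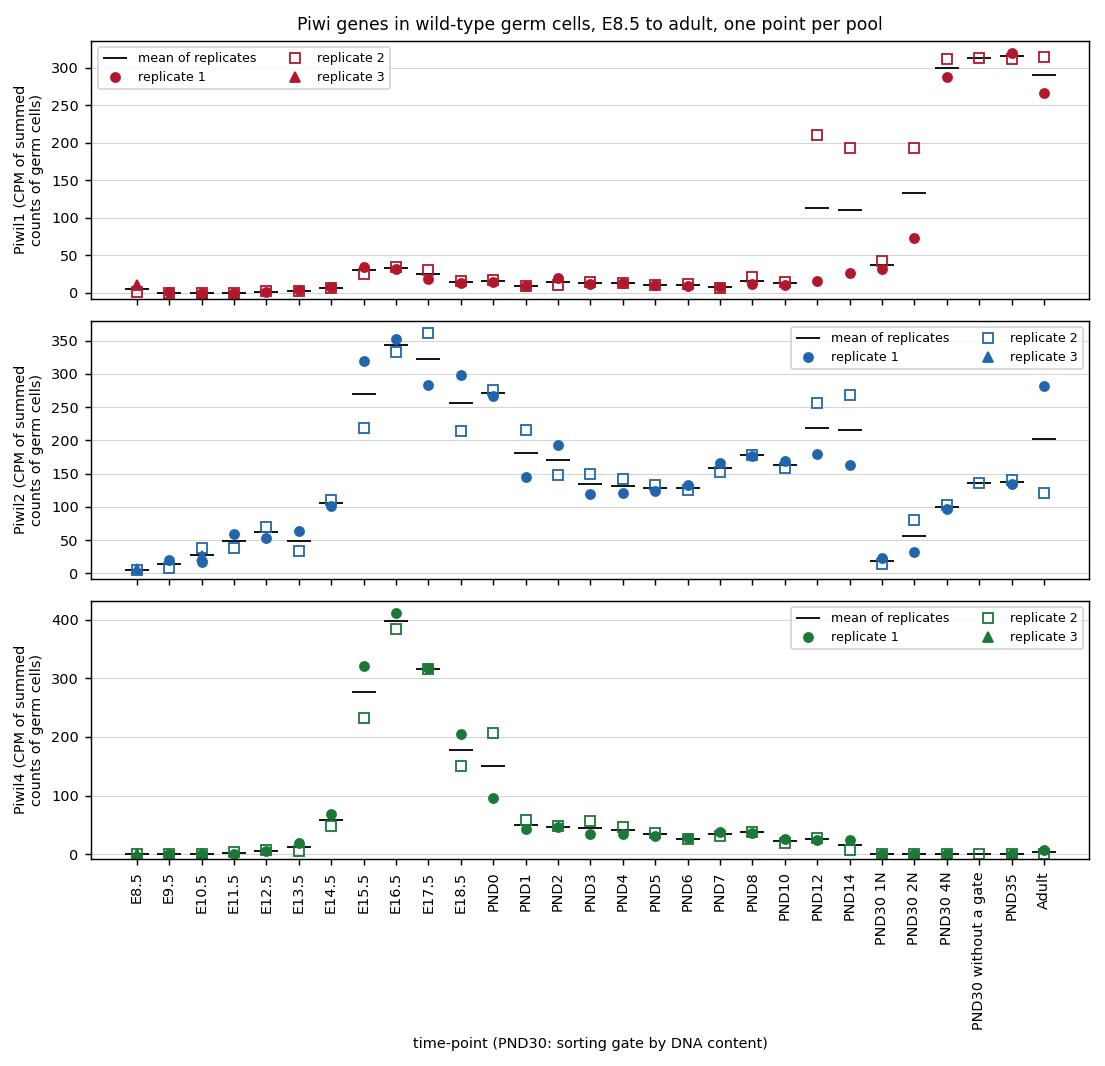
Level of each Piwi gene (CPM of the summed counts, linear axes) in wild-type germ cells of each time-point from E8.5 to adult, with 1 symbol per pool by replicate and a bar at the mean. *Piwil2* and *Piwil4* peak at E16.5 and E17.5, *Piwil4* is near 0 after PND14, and *Piwil1* is highest from the 4N gate of PND30 onwards, while its replicates at PND12 and PND14 are far apart.

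The promoter of *Piwil1* and the first promoter of *Piwil4* are shown because these genes peak at different stages, *Piwil4* in fetal arrest and *Piwil1* in the meiotic testis, and the motif AACNG, which is bound by the MYB family, was sought in them because *Mybl1* (A-MYB), an activator of pachytene genes, is among the pathway genes measured here. Each line gives the 250 bases before the RefSeq start of the gene (GRCm38.p6, the assembly that mm10 names, as chr5:128735996-128736245 on the plus strand and chr9:14740673-14740922 on the minus strand), with matches on either strand in capitals.
Piwil1: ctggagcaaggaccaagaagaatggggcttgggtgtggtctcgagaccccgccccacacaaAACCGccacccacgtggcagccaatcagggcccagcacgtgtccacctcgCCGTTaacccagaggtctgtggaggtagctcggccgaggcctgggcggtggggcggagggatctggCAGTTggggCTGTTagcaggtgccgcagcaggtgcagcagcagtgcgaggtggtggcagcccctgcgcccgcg
Piwil4: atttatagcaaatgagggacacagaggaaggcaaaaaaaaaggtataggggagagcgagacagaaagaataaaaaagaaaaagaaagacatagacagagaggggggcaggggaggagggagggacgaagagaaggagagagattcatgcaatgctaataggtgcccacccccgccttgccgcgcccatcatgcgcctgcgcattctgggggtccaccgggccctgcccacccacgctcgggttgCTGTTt
The *Piwil1* window held 4 matches and the *Piwil4* window 1, none overlapping another. The window before a second RefSeq start of *Piwil4* (chr9:14718388-14718637, minus strand, not printed) held 3 matches, some of them overlapping. Of 32851 mouse promoters of the same length, 74.2% held at least 1 match, 19.3% at least 3 and 7.03% at least 4. A match is a run of letters and not a measured site. *Mybl1* itself was at 9.54 to 16.9 CPM at E14.5 to E16.5 and 5.81 to 30.7 CPM at E17.5 to PND1. It was at 1.84 to 5.79 CPM at PND2 to PND5, 1.69 to 11.1 CPM at PND6 to PND10 and 10.4 to 47.5 CPM at PND12 to PND14. A link between its level and the Piwi genes was not tested. The antisense gene *Gm10706* lies within *Piwil4* and reached at most 2.08 CPM, and the strand used in counting is not given in the sources used here.

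Shares of positive cells depend on depth and on free RNA, so each cell was thinned to 50000 UMIs and set beside cells called somatic at the same ages. At E17.5 to PND1, *Piwil2* was found in 99.8% of thinned germ cells and in 64.2% of thinned somatic cells, and its level was 243 against 26.1 CPM. *Piwil4* was found in 88.7% and 44.1%, at 142.2 against 15.2 CPM, and *Piwil1* in 34.5% and 5.59%, at 14.6 against 1.27 CPM. Median depth before thinning was 316866 UMIs in germ cells and 128654 in somatic cells, and 30 germ and 31 somatic cells were too shallow to be thinned. Somatic-called cells thus held a low level of all 3 genes at these ages, and the share of somatic cells with a UMI is the background for a share in germ cells. At PND6 to PND10 the somatic-called cells held 23.02 CPM of *Piwil2*, 3.91 CPM of *Piwil4* and 2.06 CPM of *Piwil1*, against 160.5, 29.96 and 11.9 CPM in germ cells. In the adult, 46 somatic-called cells, all from replicate 1, held 80.3 CPM of *Piwil1*, 56.7 CPM of *Piwil2* and 7.52 CPM of *Piwil4*. The summed germ cells of the same replicate held 266, 282 and 6.16 CPM. *Piwil4* was thus not above this background in that pool as a whole. In the 21 of its cells led by gonadal germ cell and spermatogonial markers, however, *Piwil4* was at 36.7 CPM. No pool of E8.5 to E10.5 had somatic-called cells, so the share of *Piwil1* at E8.5 has no background of its own.

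Single cells showed an ordered succession of Piwi combinations. At E8.5 replicate 2, none of the 3 genes was detected in 83.5% of thinned cells, and *Piwil2* alone was detected in the other 16.48%. In replicate 3, 46.8% had none, 27.7% had *Piwil1* alone and 14.9% had *Piwil2* alone. At E11.5, *Piwil2* alone was the most frequent state, in 78.5% and 74.3% of cells. At E16.5 and E17.5, every thinned cell of the 4 pools had *Piwil2* and *Piwil4*, and between 46.7% and 60.7% had *Piwil1* as well. Cells in which *Piwil2* and *Piwil4* but not *Piwil1* were detected were the largest class in the pools of PND0 to PND5, at 39.6% to 61.4%. In the 4N gate of PND30, 91.4% and 95.6% of cells had *Piwil1* and *Piwil2* without *Piwil4*. PND35 gave 95.5% and 94.1%, and the adult 83.96% and 88.7%. Cells with all 3 genes were 12.6% in adult replicate 1 and 0.926% in adult replicate 2. In the 1N gate, 29.7% and 27.6% had none of the genes, 33.5% and 22.99% had *Piwil1* with *Piwil2*, and 20% and 37.9% had *Piwil1* alone, although at this depth a level near 20 CPM is about 1 UMI per cell.

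**Figure D2:**
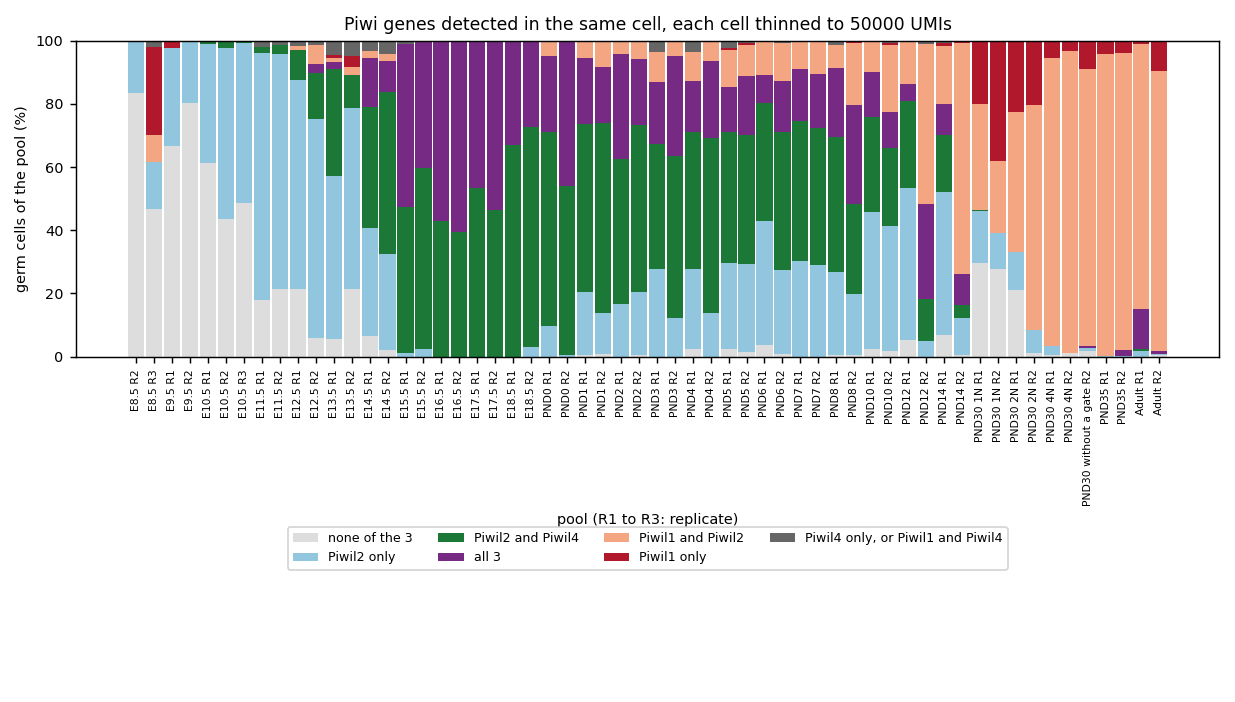
Share of germ cells (%, stacked to 100) of each pool in which each combination of the Piwi genes was detected after every cell was thinned to 50000 UMIs. The main class passes from none at E8.5 to *Piwil2* alone at E11.5, to *Piwil2* with *Piwil4* (with or without *Piwil1*) at E16.5 and E17.5, and to *Piwil1* with *Piwil2* in the 4N gate of PND30, at PND35 and in the adult, while no class holds most cells of the 1N gate.

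Changes between consecutive windows were tested with edgeR's quasi-likelihood test over 27662 genes in a single fit of the 58 pools, with Benjamini-Hochberg adjustment at a false discovery rate of 0.05, and consecutive comparisons share the window between them. On entry into the gonads (E11.5 to E13.5 against E8.5 to E10.5), *Piwil2* rose by a log2 fold change of 2.02 ± 0.29 (SE, adjusted p = 1.93e-06) and *Piwil4* by 5.78 ± 1.41 (adjusted p = 0.00523). The size of the *Piwil4* change rests in part on the pools of E8.5 and E9.5. They held 0 to 0.0828 CPM, below the limit of 3 counts. *Piwil1* had 0.93 ± 3.30 (adjusted p = 1.00), an interval of -5.75 to 7.61 that leaves its direction unknown, and the value was 1.78 without E8.5 replicate 3. Of all genes, 3.31% were called higher and 4.56% lower in this comparison, against 2 of the 3 members called higher. The call of *Piwil4* rests on replicate 2, since without that replicate of the time-points compared its change was 4.65 with an adjusted p of 0.244.

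All 3 members rose as the germ cells entered mitotic arrest (E14.5 to E16.5 against E11.5 to E13.5). *Piwil4* rose by a log2 fold change of 5.01 ± 0.39 (edgeR, adjusted p = 1.66e-12), *Piwil1* by 4.50 ± 0.99 (adjusted p = 0.000445) and *Piwil2* by 1.84 ± 0.24 (adjusted p = 1.04e-07). The ranges of the pools did not overlap for any member. Over all genes 15.3% were called higher and 11.3% lower, and the median gene shifted by 0.66 on the log2 scale, so that relative to the median the members rose by 4.35, 3.83 and 1.18. These calls held in each alternative that was run. The median also shifted by 0.67 in the next comparison and by -0.50 in the one after it, and DESeq2's scaling put the shifts of the fetal and newborn comparisons at 0.61, 0.69 and -0.73 and those of the 3 PND30 comparisons at 0.39, 0.35 and -0.13.

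From the arrest to birth (E17.5 to PND1 against E14.5 to E16.5) none of the members passed the edgeR threshold, where 23.4% of all genes were called higher and 9.76% lower. *Piwil2* changed by 0.05 ± 0.21 (log2, adjusted p = 1.00), *Piwil1* by -0.52 ± 0.47 (adjusted p = 0.472) and *Piwil4* by -0.56 ± 0.25 (adjusted p = 0.0847). The *Piwil4* change passed the threshold with the BVSC gate alone (-0.75, adjusted p = 0.00910), with a stricter germ cell call (-0.62, adjusted p = 0.0491) and without replicate 2 of the time-points compared (-1.06, adjusted p = 0.0496). Both windows contain a steep change within themselves, which the window means hide. Relative to the median gene, the 3 values were -0.63, -1.19 and -1.23.

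In PND2 to PND5 against E17.5 to PND1, *Piwil4* was lower by 1.51 ± 0.24 on the log2 scale (edgeR, adjusted p = 2.87e-06). The earlier window starts before birth and itself holds a steep fall. *Piwil4* went from 318 and 315 CPM at E17.5 to 42.5 and 57.5 CPM at PND1. The pools of PND2 to PND5 held 31.5 to 55.95 CPM, a range that overlaps PND1. The comparison therefore cannot place the fall of *Piwil4* after PND1. *Piwil2* fell by 0.56 ± 0.19 (adjusted p = 0.0138), but relative to the median gene its change was -0.06, and the call was lost without replicate 1 (-0.50, adjusted p = 0.142) or without replicate 2 (-0.40, adjusted p = 0.287) of the time-points compared. *Piwil1* was at -0.02 ± 0.43 (adjusted p = 1.00). Of all genes, 18.8% were called higher and 28.2% lower, so that the 2 falls among 3 members stand against a background in which lower calls were common. Relative to the median gene, *Piwil4* stood at -1.01. In the following window (PND6 to PND10 against PND2 to PND5) no member passed the threshold, with values of -0.02 ± 0.43, 0.28 ± 0.19 and -0.39 ± 0.26 for *Piwil1*, *Piwil2* and *Piwil4*. Of all genes, 5.99% were called higher and 5.87% lower.

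In the pubertal window (PND12 to PND14 against PND6 to PND10), *Piwil1* rose by a log2 fold change of 3.56 ± 0.40 (edgeR, adjusted p = 9.42e-09), against 10.7% of all genes called higher and 3.85% lower. *Piwil2* had 0.57 ± 0.23 (adjusted p = 0.0920) and *Piwil4* -0.51 ± 0.32 (adjusted p = 0.372). The rise of *Piwil1* came from replicate 2. Without PND12 replicate 2 and PND14 replicate 2 it was 0.60 (adjusted p = 0.642) and *Piwil2* turned to -0.12, while without the pools of replicate 1 the values were 4.52 and 1.11, and both passed the threshold (*Piwil2*, adjusted p = 0.000400). These alternatives were chosen after seeing the data. Cell makeup differed between the replicates in the same direction. Cells led by meiotic markers were 30.3% and 65.8% of germ cells in the replicates of PND12 and 32.6% and 76.1% in those of PND14. In the earlier window such cells were already 16.9% of PND10 replicate 2, with *Piwil1* at 8.47 CPM, and at most 3.33% of any other pool. The DNA content gates of PND14 were summed within a replicate, and their mix in each replicate was not examined. The Sertoli cell markers summed to 1476 and 335.5 CPM at PND12 and to 911 and 205 CPM at PND14, with none of the 11 markers at 0, and their part in the result was not tested. Yet the replicates also differed within cells led by meiotic markers, where *Piwil1* was at 4.58 and 273 CPM at PND12 and at 58.99 and 248 CPM at PND14. *Piwil2* in the same cells was at 208 and 270 CPM and at 179 and 302 CPM. In cells led by gonadal germ cell and spermatogonial markers, *Piwil1* was at 17.6 and 28.1 CPM at PND12 and 13.4 and 29.6 CPM at PND14, below the meiotic cells in all of these pools but PND12 replicate 1, where it was above them. *Piwil4* stood at 21.5 to 68.6 CPM in those cells against 2.52 to 12.8 CPM in cells led by meiotic markers.

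**Figure D3:**
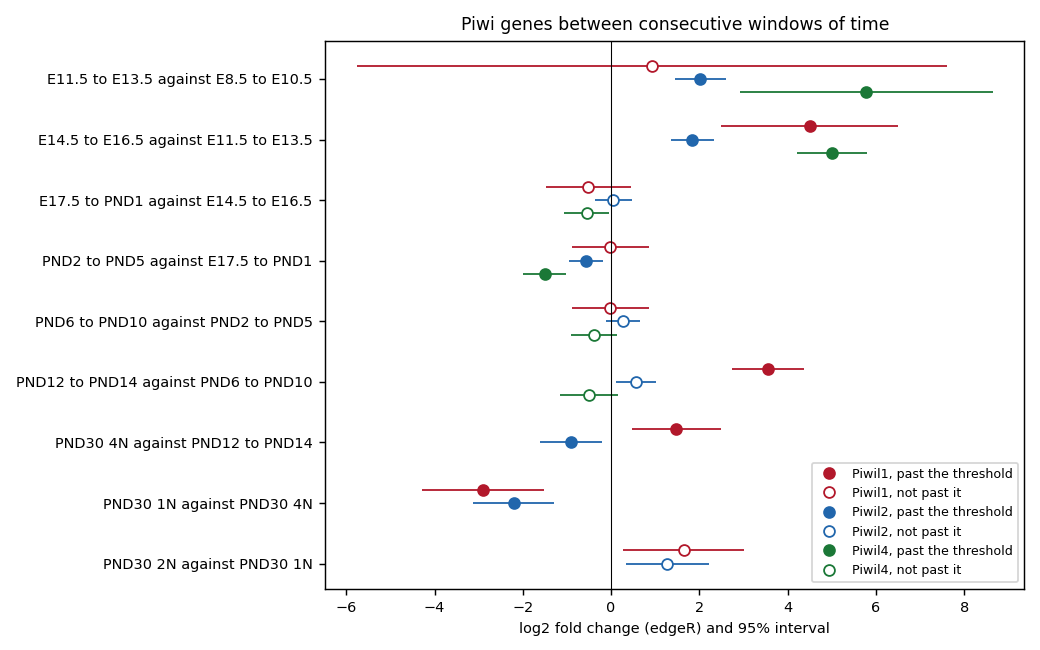
Change of each Piwi gene between consecutive windows (log2 fold change from edgeR with its 95% interval), filled where the adjusted p passed 0.05. All 3 genes are filled for E14.5 to E16.5 against E11.5 to E13.5, where *Piwil4* is at 5.01, and *Piwil4* is not drawn for the PND30 gates, where it was at or under the limit of detection.

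Levels of *Piwil1* and *Piwil2* differed between the DNA content gates of PND30. Cells of the 4N gate, which holds primary spermatocytes, exceeded PND12 to PND14 in *Piwil1* by 1.48 ± 0.49 (log2, edgeR, adjusted p = 0.0109), and *Piwil2* fell by 0.91 ± 0.34 (adjusted p = 0.0249). Both calls lean on the uneven replicates above, because *Piwil1* lost its call without replicate 1 of PND12 and PND14 (0.69, adjusted p = 0.0665) and *Piwil2* without replicate 2 (-0.22, adjusted p = 0.685). *Piwil2* also missed the threshold in DESeq2 (-0.26, adjusted p = 0.482) and with windows as groups (-0.91, adjusted p = 0.0768). *Piwil4* went from 5770 UMIs (19.6 CPM, exact Poisson interval 19.1 to 20.1, which covers counting error only) to 1 UMI, and was called lower (adjusted p = 5.82e-06). Of all genes, 26.8% were called higher and 24.9% lower. The limit of 3 counts is 0.0281 CPM in the 4N cells.

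In cells of the 1N gate, which holds haploid spermatids, both genes were lower than in 4N cells of the same mice. *Piwil1* fell by 2.89 ± 0.68 (log2, edgeR, adjusted p = 0.00256) from 288 and 311 CPM to 31.9 and 42.8 CPM, and *Piwil2* fell by 2.20 ± 0.46 (adjusted p = 0.000713) from 96.8 and 103.4 CPM to 22.6 and 14.9 CPM. Of all genes 7.50% were called lower and 9.18% higher. With 2 mice, leaving out either replicate cost *Piwil1* its call (adjusted p = 0.0743 and 0.0746), though the change stayed at -2.77 and -3.04, and leaving out replicate 2 cost *Piwil2* its call (-1.97, adjusted p = 0.0588). The 2N gate lay between, at 73.4 and 193 CPM of *Piwil1* and 32.5 and 80.2 CPM of *Piwil2*, and its replicates were further apart than those of any other gate. By markers this gate was not a stage of its own. Its cells had a median score of 7.51 for spermatid and 6.35 for meiotic markers. The scores were 8.32 and 5.78 in 1N cells and 5.32 and 7.24 in 4N cells. The part of this makeup in the level of the 2N gate was not tested. Against 1N cells the 2N gate differed by 1.65 ± 0.68 and 1.28 ± 0.46 (adjusted p = 0.645 and 0.516), in a comparison where 0% of genes were called higher and 0% lower by edgeR, 1700 had an unadjusted p under 0.05 and DESeq2 called 907. *Piwil2* was among the latter (1.11, adjusted p = 0.0341).

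**Figure D4:**
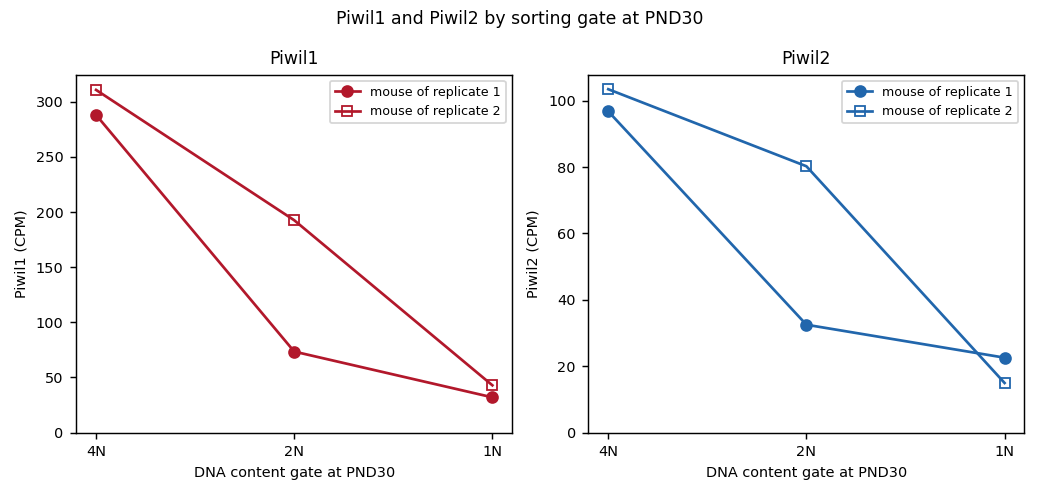
Level (CPM, axes from 0) of *Piwil1* and *Piwil2* in germ cells of the 4N, 2N and 1N gates at PND30, with a line for each of the 2 mice. Both genes are highest in the 4N gate and lowest in the 1N gate in each mouse, and the mice differ most in the 2N gate.

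The gates were compared with a grouping by RNA, in which cells of PND30, PND35 and adult were called meiosis-led or spermatid-led by the difference between their mean scores of spermatid and meiotic markers. The 42 to 153 cells of each mouse between the limits were left out. Within the 5 mice that had at least 10 cells of each kind, *Piwil1* was at 76.4 ± 40.2 CPM in spermatid-led cells and 385 ± 27.8 CPM in meiosis-led cells (SD, n = 5), and *Piwil2* at 29.02 ± 12.6 and 154 ± 18.9 CPM. The paired differences on the log2(CPM + 1) scale were -2.52 ± 0.92 and -2.47 ± 0.56, and both genes were lower in 5 of 5 mice. The exact permutation test by sign changes (two-sided) gave p = 0.0625 for each (0.0938 adjusted over the 3 members), which is the smallest p that 5 pairs allow. *Piwil4* was below 1 CPM in both kinds (0.263 and 0.177 CPM on average, p = 0.375 in the exact permutation test). The fall was gradual rather than a step. In PND30 replicate 1, *Piwil1* passed from 418 CPM in cells with a score difference of -4 to -2 through 334, 173, 66.7, 35.6 and 24.5 CPM to 14.04 CPM in cells over 4, and *Piwil2* from 137.4 CPM to 5.86 CPM. In replicate 2 the ends were 412 and 25.1 CPM for *Piwil1* and 159 and 11.8 CPM for *Piwil2*. Cells of PND35 with scores of -6 to -4 had the highest *Piwil1* of these bins, at 520.1 CPM (31 cells) and 517 CPM (17 cells). Adult replicate 1, whose cells lay at the meiotic end, had 413 CPM of *Piwil2* in cells under -6 and 137.9 CPM in cells of -2 to -1. Median depth in the bins of PND30 replicate 1 ran from 191105 to 434339 UMIs per cell and was lowest in the last bin.

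**Figure D5:**
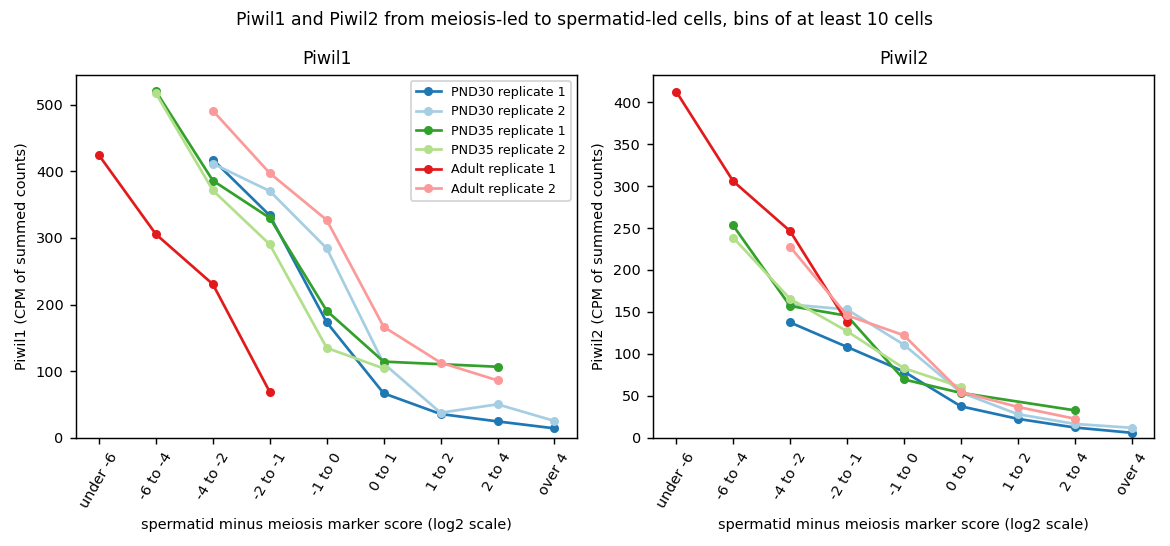
Level (CPM, axes from 0) of *Piwil1* and *Piwil2* in bins of the spermatid minus meiosis marker score (log2 scale), with a line for each replicate of PND30, PND35 and adult. Both genes are highest at the meiotic end and lowest at the spermatid end, with 1 bin of PND30 replicate 2 above its left neighbour for *Piwil1*.

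From E13.5 to E16.5 the labels divide each gonad into 3 parts, P, C and D, of 29 to 32 germ cells each. *Piwil4* in the parts P, C and D was at 18.9, 20.8 and 14.2 CPM in E13.5 replicate 1 and at 9.10, 3.47 and 4.09 CPM in replicate 2. At E16.5 it was at 430.3, 409 and 394 CPM in replicate 1 and at 363, 401 and 391 CPM in replicate 2. The order of the parts differed between the replicates of these days, and no test was run on them.

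The Piwi genes moved within a wider set of 28 genes of the piRNA pathway, a list chosen with earlier results of these data known. On entry into the gonads, 14 of the 28 (50%) passed the edgeR threshold as higher and 0 as lower, against 3.31% and 4.56% of all genes, with a list median of 1.299 (log2). *Asz1*, a mitochondrial partner of the piRNA machinery, rose by 4.48, *Mael* (maelstrom) by 4.21 and the Tudor protein gene *Stk31* by 3.67. With the arrest, 21 (75%) were higher and 0 lower, against 15.3% and 11.3% of all genes (list median 1.74). *Dnmt3l*, the cofactor of de novo DNA methylation, had 0 UMIs in every pool of E11.5 to E13.5 and 17.98 to 472 CPM at E14.5 to E16.5. *Spocd1*, a nuclear partner of MIWI2, was at 0 to 1.10 CPM and then at 10.2 to 429 CPM, and the helicase gene *Tdrd9* rose by 6.78. *Dnmt3l* and *Spocd1* thus first exceeded 10 CPM in the window in which *Piwil4* had its highest mean.

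At E17.5 to PND1, 2 of the list were higher (7.14%) and 8 lower (28.6%), against 23.4% and 9.76% of all genes (list median -0.17). Among the lower was *Tdrd5* (-1.59), while *Spocd1* rose by 1.09 and *Tdrd6* by 4.22. At PND2 to PND5, 5 were higher (17.9%) and 6 lower (21.4%), near or below the 18.8% and 28.2% of all genes (list median 0.04). The lower genes with the largest changes were *Dnmt3l* (-4.23), *Dnmt3c*, the rodent enzyme that methylates young transposons (-3.74), and *Spocd1* (-3.60). Of these, *Dnmt3c* was low in both windows, at 0.588 to 6.56 CPM and then at 0.0531 to 0.272 CPM. At PND6 to PND10, 4 were higher (14.3%) and 0 lower, against 5.99% and 5.87% of all genes (list median 0.10), with *Henmt1*, the piRNA methyltransferase gene, at 0.82, *Pld6* at 0.78 and *Tdrkh* at 0.56. At PND12 to PND14, 7 were higher (25%) and 0 lower, against 10.7% and 3.85% of all genes (list median 0.17), led by *Tdrd6* (5.06), *Mybl1* (3.22) and *Tdrd9* (1.24).

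In the 4N cells of PND30, 5 were higher (17.9%) and 11 lower (39.3%), against 26.8% and 24.9% of all genes (list median -0.19). *Tdrd6*, a chromatoid body component, rose by 3.92 to 313 and 327 CPM, *Btbd18*, a regulator of pachytene piRNA loci, fell by 6.41 and *Morc1*, which acts in fetal transposon silencing, fell by 4.57. In 1N against 4N cells 1 gene was higher, *Tex15* (1.49), and 11 were lower (39.3%), against 9.18% and 7.50% of all genes (list median -1.18), with *Tdrd5* at -3.63, *Stk31* at -2.24 and *Gpat2* at -2.12. In 2N against 1N cells 0 of the 28 passed in either direction, as did 0% of all genes (list median 0.48). *Tex15* was named after its values were seen, as the sole gene that rose.

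Genes with the most similar course were ranked by Pearson correlation of log2(CPM + 1) across the 58 pools, among 16856 genes with at least 10 CPM in at least 2 pools. The values are a description, because pools of neighbouring days share their stage. For *Piwil2* the closest were *Gpat2* (r = 0.9498) and *Mov10l1* (0.948), a partner of PIWI proteins in primary piRNA biogenesis, followed by *Arl14epl*, *Adad2* and *Tex12*. *Piwil4* was closest to *Ccnjl* (0.971), the homeobox gene *Rhox10* (0.964), *Pnck*, *Nab1* and the histone demethylase gene *Kdm1b* (0.953). *Piwil1* was closest to *9330102E08Rik* (0.9495), *Rexo5*, *BC049730*, and the axonemal genes *Dnah14* and *Cfap74* (0.943). Among themselves, *Piwil2* and *Piwil4* had r = 0.75, *Piwil1* and *Piwil2* 0.48, and *Piwil1* and *Piwil4* -0.03.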

How the data were processed

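Wild-type cells of E8.5 to adult were analysed, with groups taken per cell from the table of cells that was deposited with the counts. The authors trimmed and demultiplexed the reads with UMI-tools and seqtk, aligned them to mm10 with STAR, assigned unique alignments to genes with featureCounts and deposited UMI counts per gene and cell, not normalized. The submitters' processing notes also name CASAVA 1.8. The strand used in counting is not given in the sources used here. All 13032 cells of the table matched the matrix, with whole-number counts and no column left unused (0). Libraries of the *Helq* mutant and of E6.5 and E7.5 were not analysed here.

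Cells with more than 2000 genes and 10000 to 1000000 UMIs, the limits the authors state, were kept (9972 of 10224). Germ cells were called from the mean log2(CPM + 1) of marker lists, 4 for germ cells and 6 for somatic cells: outside the Negative gate, a germ list at 3 or more and no more than 2 below the highest somatic list. Somatic cells had all germ lists at least 3 below. These limits, the classes led by a list, the score bins, the combinations and the gonad parts were set after the data were seen, and 100 germ cells lay within 1 unit of the limit. No doublet caller was run. The 115 libraries used share a set of 96 plate barcodes, each found in 90 to 112 libraries. Cells were meiosis-led or spermatid-led where the 2 scores differed by more than 1.

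Counts were summed per pool and tested with edgeR 4.0.16 (TMM, filterByExpr, glmQLFit without a separate dispersion step, glmQLFTest) in R 4.3.3, with each time-point or gate a group. Log2 fold changes come from its model. DESeq2 1.42.0, no filter, windows as groups, a single gate, a stricter call, left-out replicates and a block by mouse were the alternatives. Leaving out E8.5 replicate 3 or a replicate of PND12 and PND14 was chosen after seeing the data. The fit was tested on simulated data. Thinning used a fixed seed. Intervals of counts and shares are exact at 95% and, like the limit of 3 counts, cover counting error only. Intervals of log2 fold changes, also at 95%, use the t distribution and the SE of the edgeR fit, and include the spread between pools. The paired test was an exact permutation test on log2(CPM + 1), computed by counting every assignment of signs with numpy 2.4.6. The exact intervals were computed with scipy 1.17.1.

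The members, the pathway list and the marker lists were chosen with earlier results of these data known. Genes were named by rule: the members, the 5 genes most correlated with each, and at most the 3 pathway genes with the largest change per comparison among those past the threshold. The promoter sequences are from RefSeq (GRCm38.p6) and matched 2 of the 3 members. Gene positions are from GENCODE M21 on mm10.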

Additional observations from a re-analysis of the deposited data

Results flagged for a closer look

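Of 21 groups of 4 to 10 pools that were examined, 4 had a pool farther from its nearest neighbour than Dixon's 95% limit allows. That limit assumes pools of a common level, while each group joins several days. The number flagged can therefore not be set against a chance rate. *Piwil1* in E8.5 replicate 3 was at 9.89 CPM against at most 0.738 CPM in the other pools of E8.5 to E10.5, and this pool also had the lowest level of early germ cell markers in the window. *Piwil4* in E13.5 replicate 1 was at 18.1 CPM against at most 6.88 CPM in E11.5 to E13.5. PND2 replicate 1 was highest in PND2 to PND5 for both *Piwil1* (19.5 CPM, next 14.1 CPM) and *Piwil2* (193.4 CPM, next 149.5 CPM). That pool holds 24 germ cells beside 85 somatic-called cells, and its Sertoli cell markers summed to 662 CPM against 118.2 CPM in replicate 2. The part of these differences in the levels was not tested.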

How the results depend on the processing

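Of the members' values under the alternatives, 190 kept their direction and side of the threshold, 14 lost a call, 8 gained a call and 11 changed sign, and the cause was not tested. Counts of genes called kept within 1.5 times in 54 settings. In the arrest comparison the calls of all 3 members held throughout, and in the paired comparison *Piwil1* and *Piwil2* stayed negative under each setting.

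Members by setting. DESeq2 gave *Piwil2* -0.26 for 4N against PND12 to PND14 and 1.11 for 2N against 1N. Windows as groups gave *Piwil2* -0.064 at E17.5 to PND1 and -0.91 in 4N cells, and *Piwil1* 0.064 at PND6 to PND10. The BVSC gate alone gave *Piwil2* -0.15 and *Piwil4* -0.75 at E17.5 to PND1 and *Piwil1* 0.12 at PND2 to PND5. The stricter call gave *Piwil4* -0.62 at E17.5 to PND1, *Piwil1* 0.091 at PND2 to PND5 and *Piwil2* 0.67 at PND12 to PND14, and leaving out PND8 gave *Piwil2* 0.70 there. Leaving out replicates gave *Piwil4* 4.65 to 7.17 at E11.5 to E13.5 and -1.06 to -0.54 at E17.5 to PND1. For *Piwil2* it gave -0.27 to 0.09 at E17.5 to PND1, -0.60 to -0.40 at PND2 to PND5 (-0.50 without replicate 1), -0.12 to 1.11 at PND12 to PND14 (-0.017 and 1.09 where a whole replicate number was left out), -1.28 to -0.22 in 4N cells (-0.31 without replicate 2) and -2.70 to -1.97 in 1N cells. For *Piwil1* it gave -0.13 to 0.37 at PND2 to PND5, -0.35 to 0.22 at PND6 to PND10, 0.60 to 4.52 at PND12 to PND14 (0.96 without replicate 2), 0.69 to 4.45 in 4N cells (0.71 without replicate 1) and -3.04 to -2.77 in 1N cells. The sign of *Piwil2* at E17.5 to PND1 also turned without replicate 1 of those time-points (-0.087).

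Genes called. In the order of the report, edgeR called 2178, 7366, 9176, 13013, 3282, 4018, 14294, 4615 and 0 genes. DESeq2 called 5430 at E11.5 to E13.5, 11905 at E14.5 to E16.5 and 907 for 2N against 1N, where no filter gave 8, windows 4 and the BVSC gate 51. Leaving out replicates gave 782 to 1942 genes at E11.5 to E13.5 (1259 without replicate 2), 3717 to 4754 at E14.5 to E16.5, 3510 to 8358 at E17.5 to PND1, 7934 to 12052 at PND2 to PND5, 301 to 1352 at PND6 to PND10, 148 to 5566 at PND12 to PND14 (226 without PND12 and PND14 of replicate 2), 7523 to 13859 in 4N cells, 646 to 2174 for 1N against 4N and 0 to 30 for 2N against 1N. Leaving out PND8 gave 2052 genes at PND6 to PND10.

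The gates of PND30 of a replicate come from the same mouse. With the replicate block the values were -2.87 and -2.13 for *Piwil1* and *Piwil2* in 1N against 4N cells, 1.496 and 1.14 in 2N against 1N cells and 1.51 and -0.89 in 4N cells against PND12 to PND14, and the block changed no call. Levels moved by more than the spread between pools in 26 of 72 comparisons of scaling or thinning. With 2 pools per time-point, small changes cannot be shown.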
